A study of Homo sapiens with 6 samples.

Results

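Matrix metalloproteinases (MMPs), ADAMs, ADAMTS enzymes and their inhibitors, the TIMPs, were examined in cells labelled MB231. The members were the genes annotated as protein-coding in the deposited table whose symbol was MMP, ADAM or ADAMTS followed by a digit, or TIMP1 to TIMP4. The rule found 67 of 58735 genes, namely 23 MMPs, 20 ADAMs, 19 ADAMTS genes, 4 TIMPs and MMP24OS, a transcript opposite MMP24 that met the naming rule and is not known as a protease. Names such as ADAMDEC1 and the ADAMTS-like genes do not match it.

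The series holds 6 human RNA sequencing libraries in 2 groups of 3, each labelled as MB231 breast cancer cells. The libraries labelled shNC carry the genotype label WT, and those labelled shPAK5 the genotype label PAK5 knockdown, PAK5 being a p21-activated serine/threonine kinase. The labels name no hairpin sequence, clone or vector, and they leave unsaid whether the replicates are separate cultures. The p-values therefore speak only of the spread between libraries, and this spread may be technical. Values are FPKM (fragments per kilobase of exon, scaled for depth and so a level per length), and 15085168 to 18146091 reads per library lay behind them.

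PAK5 itself had 0 reads in each of the 6 libraries, and a count of 0 allows up to 3 reads per library, for counting error only, so the knockdown could not be checked. The name MB231 is taken as MDA-MB-231, a line known for a mesenchymal state. Of 10 mesenchymal markers 6 had at least 1 FPKM in shNC, among them VIM at 149 ± 10.2 FPKM (SD, n = 3), CAV1 at 56.7 ± 3.41, CD44 at 55.2 ± 2.05 and AXL at 19.2 ± 0.0909, while CDH2 and TWIST1 had no reads, FN1 was at 0.0319 ± 0.0201 FPKM (SD, n = 3) and SPARC at 0.174 ± 0.0384. Of 7 epithelial markers known to be low in that line 5 had at least 1 FPKM, among them KRT19 at 1410.5 ± 48.1 and EPCAM at 109 ± 7.69 FPKM, which goes against the label, while ESRP1 at 0.0280 ± 0.00609 and GRHL2 at 0.0131 ± 0.0150 were near absent. The summed epithelial markers ranged from 1509.6 to 1598 FPKM in shNC and from 1627 to 1631 in shPAK5, and the summed mesenchymal markers from 275 to 305 and from 304 to 308. KRT19 and VIM make up most of these sums, and single markers went both ways. The shPAK5 mean was higher for 4 and lower for 3 of the epithelial markers, ESRP2 going from 2.89 ± 0.161 to 2.20 ± 0.205 FPKM, and higher for 4 and lower for 4 of the mesenchymal ones. Their part in the results was not tested. The libraries are therefore named by their labels only. The markers of macrophages, of fibroblasts and of endothelium, each set taken alone, summed to at most 0.315 FPKM in any library.

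MMPs are zinc-dependent enzymes, secreted or anchored in the membrane, that cut components of the extracellular matrix and are made as inactive precursors. ADAMs are membrane-anchored relatives, several of which release growth factors, receptors and adhesion molecules from the cell surface, and ADAMTS enzymes are secreted relatives that cut proteoglycans and process procollagens. TIMPs bind the active site of these enzymes and block it. In carcinomas many of the MMPs are known to be made by stromal cells, and MMP7 by the epithelial cells themselves.

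The genes of 9 MMPs lie side by side on chromosome 11 between 102520508 and 102955734 (GRCh38), all on the minus strand. MMP7 held 3870 of the 3897 reads counted for the 9 genes over the 6 libraries, or 99.3%. Promoter windows of 300 bases, from 250 before to 50 after the RefSeq start site (RefSeq, GRCh38.p14), were found for 5 of these 9 genes and for 40 of the 67 members. Only 1 window was taken per gene, and some start sites lie well inside the annotated gene, that of ADAM29 by 88690 bases. The windows of MMP7 and of its neighbours MMP10 and MMP20 are shown because all 3 hold a match to the AP-1 motif while MMP7 alone among the 9 genes was read at more than trace level. Each runs 5′ to 3′ along the gene, with matches to 3 motifs in capitals: AP-1 (TGANTCA, N being any base), TCF (CTTTGA) and the TATA box (TATAAA), each searched on both strands. No matches to different motifs overlapped in these windows.
MMP7, chr11:102530698-102530997, minus strand: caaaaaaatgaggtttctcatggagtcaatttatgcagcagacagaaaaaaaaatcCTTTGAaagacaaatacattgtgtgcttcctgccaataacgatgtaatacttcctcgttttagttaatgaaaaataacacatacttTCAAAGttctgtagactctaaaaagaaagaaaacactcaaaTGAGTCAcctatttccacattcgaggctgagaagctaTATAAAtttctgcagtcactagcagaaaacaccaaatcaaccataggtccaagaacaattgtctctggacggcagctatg
MMP10, chr11:102780579-102780878, minus strand: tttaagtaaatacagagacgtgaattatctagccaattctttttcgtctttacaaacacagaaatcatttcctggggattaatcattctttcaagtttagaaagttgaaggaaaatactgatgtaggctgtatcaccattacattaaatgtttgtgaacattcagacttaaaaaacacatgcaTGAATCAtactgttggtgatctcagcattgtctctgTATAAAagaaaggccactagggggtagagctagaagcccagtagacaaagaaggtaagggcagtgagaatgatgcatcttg
MMP20, chr11:102625283-102625582, minus strand: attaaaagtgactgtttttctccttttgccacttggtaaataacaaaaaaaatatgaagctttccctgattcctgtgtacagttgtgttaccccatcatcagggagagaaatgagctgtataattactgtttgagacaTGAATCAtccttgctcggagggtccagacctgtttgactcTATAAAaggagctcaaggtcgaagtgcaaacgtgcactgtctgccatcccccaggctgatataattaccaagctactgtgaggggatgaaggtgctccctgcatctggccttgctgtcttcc
In MMP7 the AP-1 match began 67 bases before the start site, the TATA match 30 bases before it and the 2 TCF matches 194 and 108 bases before it. MMP10 had its AP-1 match at the same distance, 67 bases, and its TATA match at 31 bases. In MMP20 these matches began 112 and 72 bases before the start site. Neither MMP10 nor MMP20 held a TCF match. Of all 35116 promoter windows in the table, 7.71% held the AP-1 letters, 12.9% the TCF letters and 11.5% the TATA letters. Among the 40 member windows the counts were 4, 4 and 8. These matches describe the letters and say nothing of binding.

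Of the 67 members, 17 averaged 1 FPKM or more across the 6 libraries, 28 lay below that with at least 1 read, and 22 had no reads at all. That is 25.4% of the members at or above 1 FPKM, against 50.1% of all protein-coding genes, and 32.8% without reads, against 22.4%. The inhibitors TIMP1 and TIMP2 and the sheddase ADAM9 had the highest levels, ADAM15, TIMP4 and MMP28 came next, and MMP15 and MMP7 lay below them, whereas the secreted collagenases and gelatinases were close to absent. The length behind each FPKM value is that of all annotated exons of the gene. ADAM10, with 16168 such bases, had 20126 reads over the 6 libraries, and TIMP1, with 1541 bases, had 16725. The order of levels, the cut at 1 FPKM and sums of FPKM therefore depend on this length. In bulk RNA, fewer expressing cells and less RNA per cell cannot be told apart.

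**Figure D1:**
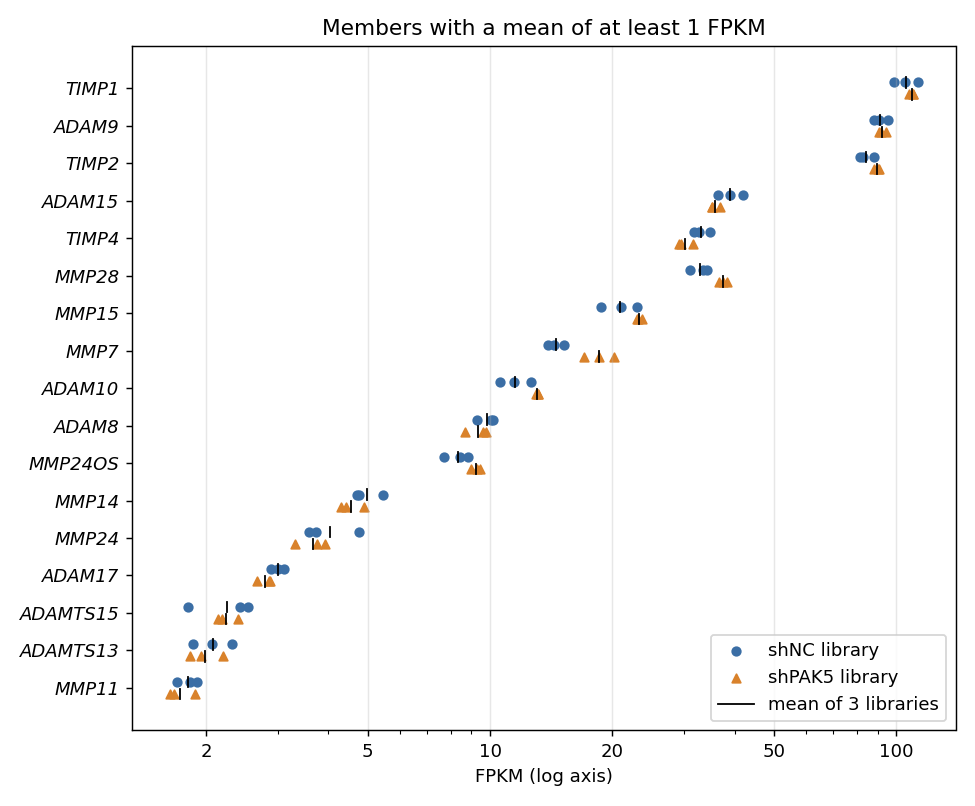
Level of the 17 members with a mean of at least 1 FPKM, in FPKM on a log axis, with 1 point per library (circles, 3 shNC libraries, triangles, 3 shPAK5 libraries) and a bar at each group mean. TIMP1, ADAM9 and TIMP2 lie above 80 FPKM in every library, and MMP11 is the lowest, at 1.81 FPKM in shNC.

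Among the inhibitors, TIMP1, which blocks most MMPs and also ADAM10, had 98.9, 104.8 and 113 FPKM in shNC replicates 1 to 3 and 110.03, 109.8 and 107 FPKM in shPAK5 replicates 1 to 3. TIMP2, which also takes part in activating pro-MMP2 together with MMP14, had 88.0, 81.5 and 82.6 FPKM in shNC and 90.6, 90.1 and 88.0 in shPAK5. TIMP4 had 32.8, 34.8 and 31.7 FPKM in shNC and 29.3, 31.5 and 29.6 in shPAK5. TIMP1 and TIMP2 overlapped between the groups, and for TIMP4 all shPAK5 libraries lay below all shNC libraries. TIMP3, the inhibitor with the widest action on ADAMs, had no reads in any library, which allows at most 0.0128 FPKM over the pooled shNC libraries and 0.0130 over the pooled shPAK5 libraries. TIMP1 and TIMP3 lie within introns of SYN1 and SYN3. The exons of TIMP2 share 565 of 5633 bases with CEP295NL and AC022966.1. The exons of TIMP4 share 170 of 1650 bases with SYN2 on the other strand, and strand use in counting is not given in the sources used here, so reads from such overlaps cannot be assigned with certainty.

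The most abundant MMPs were neither collagenases nor gelatinases. MMP28 (epilysin), an MMP of epithelia and wound repair, had 31.0, 34.3 and 33.5 FPKM in shNC and 38.2, 36.6 and 37.5 FPKM in shPAK5. Its exons share 0 bases with other genes, but it lies within an intron of TAF15, and strand use is not known for it either. MMP15, a membrane-type MMP, had 18.8, 21.1 and 22.95 FPKM in shNC and 23.7, 23.1 and 23.00 in shPAK5. MMP7 (matrilysin), which lacks the hemopexin domain of most MMPs and cuts matrix proteins and surface proteins, had 15.2, 13.9 and 14.4 FPKM in shNC and 17.03, 18.5 and 20.1 in shPAK5. For each of these 3 genes every shPAK5 library lay above every shNC library, MMP15 by the smallest margin. Of all tested genes 12.6% did the same, and for 10.5% every shPAK5 library lay below.

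The other membrane-type MMPs were lower. MMP14, the main pericellular collagenase and activator of pro-MMP2, was at 4.97 ± 0.420 FPKM in shNC and 4.54 ± 0.314 in shPAK5 (SD, n = 3). MMP24, a membrane-type MMP best known from the nervous system, was at 4.03 ± 0.639 and 3.66 ± 0.315 FPKM, and the stromelysin MMP11 at 1.81 ± 0.104 and 1.73 ± 0.138. The groups overlapped for all 3. MMP24 and MMP24OS share exonic bases on opposite strands, 961 of 4414 bases of MMP24 being overlapped by other genes, so that part of their reads is uncertain. MMP24OS was at 8.32 ± 0.575 FPKM in shNC and 9.24 ± 0.223 in shPAK5, with every shPAK5 library above every shNC library.

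The gelatinases and collagenases were near the limit of detection. MMP2 had 1 read and MMP9 2 reads over all 6 libraries, MMP1 had 4 reads, MMP13 18 reads, and MMP8 none. In the chromosome 11 cluster, MMP7 was followed in order by MMP20 with 3 reads, MMP27 and MMP8 with none, MMP10 with 2, MMP1 with 4, MMP3 and MMP12 with none, and MMP13 with 18. The nearest of these genes, MMP20, lies 46081 bases from MMP7. All 5 matched promoter windows of the cluster held between 2 and 4 CG dinucleotides, against a median of 14 over all windows. Of the 5, 3 held an AP-1 match and 4 a TATA match. The window of MMP8, 1 of those with a TATA match, belongs to a start site 2096 bases inside the annotated gene.

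**Figure D2:**
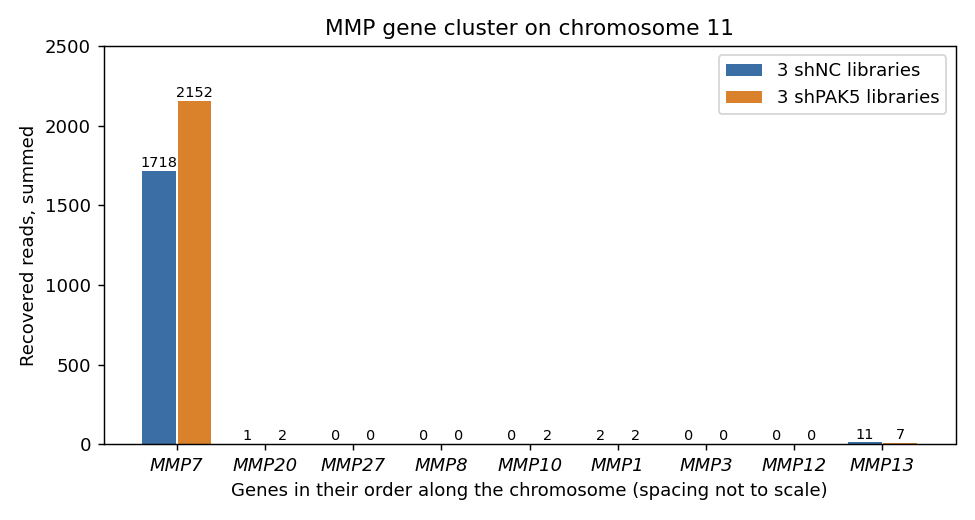
Recovered reads, summed over the 3 shNC and the 3 shPAK5 libraries, for the 9 MMP genes of the chromosome 11 cluster in their order along the chromosome (spacing not to scale). MMP7 stands at 1718 and 2152 reads, and none of the other genes exceeds 11 in a group.

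A similar contrast was seen in some neighbours elsewhere and not in others. ADAM9 and ADAM32 lie 1845 bases apart on chromosome 8 on the same strand, with 64312 reads for ADAM9 and 17 for ADAM32 over the 6 libraries, and ADAM18 and ADAM2 beyond them had none. ADAMTS15 and ADAMTS8 lie 19980 bases apart on opposite strands of chromosome 11, with 1288 and 44 reads. MMP24OS and MMP24, which overlap, were both read. Other neighbours were both near absent, with 9 reads for ADAM21 and 6 for ADAM20, and 3 for MMP21 and 0 for ADAM12. ADAMTS1 had 1 read and ADAMTS5 0, and ADAM28 had 1 and ADAM7 0.

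Of the 12 ADAM members known as active metalloproteinases, 5 were at or above 1 FPKM, 5 were read below it and 2 had no reads. None of the 8 members known as catalytically inactive reached it, 3 being read below it and 5 having no reads. ADAM9, a widely expressed sheddase, had 95.3, 88.2 and 90.8 FPKM in shNC and 94.5, 91.7 and 90.9 in shPAK5. ADAM15, an adhesion protein with an RGD motif in its disintegrin domain, had 36.4, 41.9 and 38.9 FPKM in shNC and 35.2, 35.2 and 36.8 in shPAK5. ADAM10, which cuts Notch receptors, E-cadherin and several growth factor precursors, had 12.6, 10.6 and 11.4 FPKM in shNC and 13.1, 13.0 and 13.1 in shPAK5. ADAM9 and ADAM15 overlapped between the groups, whereas for ADAM10 all shPAK5 libraries lay above all shNC libraries.

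ADAM8, a sheddase of leukocytes and some tumors, was at 9.86 ± 0.482 FPKM in shNC and 9.36 ± 0.584 in shPAK5 (SD, n = 3). ADAM17 (TACE), the main sheddase of TNF, TGFA and other ligands of the EGF receptor, had 3.10, 2.89 and 3.01 FPKM in shNC and 2.67, 2.87 and 2.85 in shPAK5, the latter just below the former. ADAM17 shares 1465 of its 10750 exonic bases with other genes on the opposite strand. Just below 1 FPKM were ADAM19, at 0.753 ± 0.0966 in shNC and 0.532 ± 0.157 in shPAK5, and ADAM22, an inactive ADAM and neuronal receptor, at 0.719 ± 0.0349 and 0.649 ± 0.0967. ADAM12, ADAM23, ADAM29 and ADAM30 had no reads.

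The ADAMTS genes were low. The proteoglycanase ADAMTS15 was at 2.26 ± 0.393 FPKM in shNC and 2.24 ± 0.138 in shPAK5 (SD, n = 3). ADAMTS13, which cuts von Willebrand factor, was at 2.08 ± 0.230 and 1.99 ± 0.195 FPKM. ADAMTS7, at 0.565 ± 0.0674 and 0.482 ± 0.0540 FPKM, has pseudogene copies in the table, so its reads may be shared with them. Of the proteoglycanases ADAMTS5, ADAMTS9 and ADAMTS20 had no reads, ADAMTS1 had 1 and ADAMTS4 had 12. Of the 3 procollagen N-propeptidases, ADAMTS2 had 2 reads, ADAMTS14 had 1 and ADAMTS3 none.

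Neighbours in this order of levels were not separated everywhere. In the shNC libraries TIMP1 lay above ADAM9 in each library, ADAM9 above TIMP2 in each, and TIMP2 far above ADAM15. TIMP4, at 33.1 ± 1.55 FPKM, and MMP28, at 32.9 ± 1.70, did not differ beyond their spread. The shNC ranges of MMP14 and MMP24 overlapped, MMP24 being at 4.76 and MMP14 at 4.75 FPKM in shNC replicate 2. Those of ADAMTS15, ADAMTS13 and MMP11 overlapped from each gene to the next. Summed over each family, the TIMPs came to 223 ± 4.20 FPKM in shNC and 229 ± 3.39 in shPAK5, the ADAMs to 157 ± 1.45 and 155 ± 1.38, the MMPs to 79.6 ± 3.66 and 89.5 ± 1.80, and the ADAMTS genes to 5.55 ± 0.549 and 5.27 ± 0.171 (SD, n = 3). The MMP sums did not overlap between the groups, at 75.4, 81.0 and 82.3 FPKM in shNC and 89.1, 87.9 and 91.4 in shPAK5, and the ratio of summed TIMP to summed MMP mRNA was 2.80 ± 0.0976 in shNC and 2.56 ± 0.0887 in shPAK5. These sums were chosen for mention after the values were seen and were not tested.

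Libraries labelled shPAK5 were compared with those labelled shNC to ask whether the proteolytic genes differed under the labelled knockdown. No member passed in limma on log2(FPKM + 1) at a Benjamini-Hochberg adjusted p of 0.05, where 0.116% of the 11237 tested genes did (17 members tested, 5 with an unadjusted p under 0.05, against 17.0% of all tested genes). In limma-voom on the reads behind the FPKM values 1 member passed, MMP7, against 1.04% of all tested genes. Of the 17 tested members 8 had a positive and 9 a negative change, and their median change was -0.0020 on the log2 scale, against 0.0038 over all tested genes. For all 17 the 95% interval spanned less than 1.5-fold up or down on the log2(FPKM + 1) scale. For low genes this scale gives less than the change itself.

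**Figure D3:**
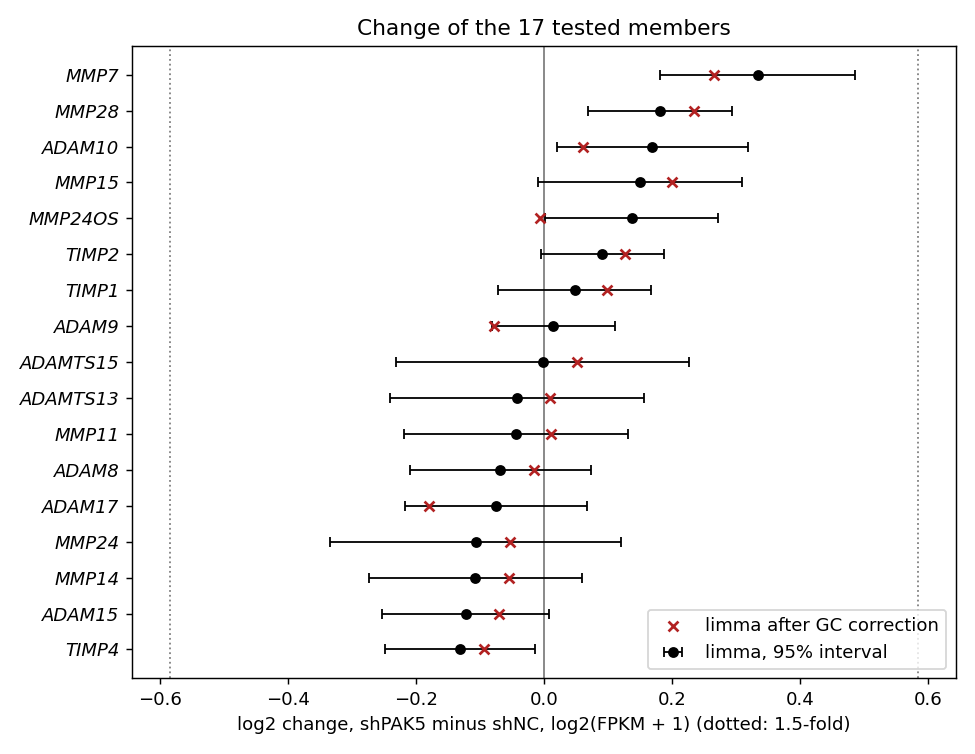
Change of the 17 tested members, shPAK5 minus shNC, on the log2(FPKM + 1) scale. Black points and bars give the limma estimate with its 95% interval, red crosses the limma estimate after a correction for GC content, and dotted lines a 1.5-fold change. MMP7 is highest at 0.33, TIMP4 lowest at -0.13, and no interval reaches 1.5-fold.

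MMP7 (ENSG00000137673), on chromosome 11 from 102520508 to 102530753, had the largest change among the tested members. Its mean was 14.5 ± 0.626 FPKM in shNC and 18.6 ± 1.55 in shPAK5 (SD, n = 3), and the ratio of means was 1.28. On the log2 scale the change was 0.33 ± 0.07 (SE) in limma (adjusted p = 0.145) and 0.35 ± 0.08 in limma-voom (adjusted p = 0.0423). Without shNC replicate 1 MMP7 also passed in limma (adjusted p = 0.0361), a fit in which 8.34% of all tested genes passed. In limma-voom without that library 5 members passed, against 21.6% of all tested genes. The limma-voom call of MMP7 was lost without shNC replicate 3 (adjusted p = 0.251) and without shPAK5 replicate 1, 2 or 3 (limma-voom adjusted p = 0.127, 0.191 and 0.181). Its change over all alternatives ran from 0.27 to 0.41.

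MMP28 came next in size, with a change of 0.18 ± 0.05 (SE) in limma (adjusted p = 0.190) and a ratio of means of 1.14. ADAM10 changed by 0.17 ± 0.06 (limma adjusted p = 0.256) and MMP15 by 0.15 ± 0.07 (limma adjusted p = 0.316). On the negative side were TIMP4 at -0.13 ± 0.05 (limma adjusted p = 0.262), ADAM15 at -0.12 ± 0.06 (limma adjusted p = 0.318) and MMP14 at -0.11 ± 0.07 (limma adjusted p = 0.477). For 7 of the 17 members the groups did not overlap, 5 with shPAK5 higher, where 12.6% of all tested genes did the same, and 2 with shPAK5 lower, against 10.5%. The remaining changes were between -0.11 and 0.14. ADAM10 passed in limma without shNC replicate 1 (adjusted p = 0.0404).

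GC content moved with the difference between the groups across all tested genes. The median change was 0.11 on the log2 scale in the fifth of genes with the lowest GC content and -0.05 in the fifth with the highest. The longest transcripts of MMP7 and ADAM10 had a GC content of 41.3% and 38.3%, that of MMP24OS 35.5%, and those of MMP28 and MMP15 63.8% and 66.0%. After a GC correction, chosen after seeing the data, MMP28 passed, with a change of 0.23 ± 0.03 in limma (adjusted p = 0.0297), where 0.516% of all tested genes passed. With the same correction the change of MMP7 was 0.27 ± 0.06 (limma adjusted p = 0.103), that of MMP15 0.20 ± 0.04 (limma adjusted p = 0.103), that of ADAM10 0.06 ± 0.04 (limma adjusted p = 0.410) and that of MMP24OS -0.01 ± 0.09 (limma adjusted p = 0.980).

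The genes around these proteases were described by 6 lists, of 119 distinct genes of which 78 were tested. In limma 1 of the 78 passed (1.28%, against 0.116% of all tested genes) and in limma-voom 5 (6.41%, against 1.04%). Of the 78, 41 lay above 0, where 51.3% of all tested genes did. Their median change was 0.0029 (log2), against 0.0038 over all tested genes. The lists were chosen with earlier results of these data known, so these shares are no test of them. TGFA, a ligand of the EGF receptor that ADAM17 releases from the membrane, had 3.71, 3.28 and 3.19 FPKM in shNC and 6.06, 5.57 and 6.21 in shPAK5, and its log2 value rose by 0.66 ± 0.07 (SE; limma adjusted p = 0.0221, limma-voom adjusted p = 0.000472). Every shPAK5 library lay above every shNC library. With the replicate number as a block the limma call was lost (adjusted p = 0.0798), as it was with no filter on low genes (limma adjusted p = 0.104) and without any 1 library other than shNC replicate 1 (limma adjusted p from 0.0605 to 0.137). In limma-voom the call held without each library.

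Among the 33 substrates shed by ADAM10 or ADAM17, 24 were tested, 17 of them with a change above 0, and the median was 0.02 (log2). Besides TGFA, CDH1 (E-cadherin) passed in limma-voom (adjusted p = 0.0377) but not in limma (adjusted p = 0.129), with 4.64 ± 0.180 FPKM in shNC and 5.84 ± 0.0905 FPKM in shPAK5 (SD, n = 3). This limma-voom call was lost without shNC replicate 3 (adjusted p = 0.251) and without shPAK5 replicate 1, 2 or 3 (limma-voom adjusted p = 0.236, 0.198 and 0.140). The most abundant were the amyloid precursor gene APP, at 187 ± 8.07 and 187 ± 2.31 FPKM, its relative APLP2, at 157 ± 4.47 and 169 ± 1.32, and the proteoglycan gene SDC1, at 127 ± 1.87 and 129 ± 3.10. TNF had 3 reads over the 6 libraries.

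None of the 13 tested genes of 15 that activate or carry ADAM10, ADAM17 and the membrane-type MMPs passed in limma or limma-voom, and 4 of the changes were above 0, the median being -0.07. The iRhom genes RHBDF1 and RHBDF2, whose products bring ADAM17 to the surface, were at 6.92 ± 0.678 and 6.72 ± 0.371 FPKM in shNC and at 5.99 ± 0.327 and 5.51 ± 0.362 in shPAK5 (SD, n = 3). For both all shPAK5 libraries lay below all shNC libraries, but RHBDF2 did not pass (limma adjusted p = 0.188, limma-voom adjusted p = 0.0769), and RHBDF1 lay further from the threshold (limma adjusted p = 0.280). They were named after their values were seen. TSPAN15, a tetraspanin that directs ADAM10, was the most abundant of the list at 29.7 ± 2.38 and 27.8 ± 0.662 FPKM, followed by TSPAN17, at 16.7 ± 0.213 and 16.4 ± 0.685, and the iRhom partner FRMD8, at 15.0 ± 0.873 and 14.1 ± 0.590.

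Of the 14 factors known to act on MMP promoters, namely AP-1 and ETS factors and RUNX2, 12 were tested, with 6 positive changes and a median of -0.0012. FOSL1, an AP-1 subunit, had 26.1, 27.1 and 26.2 FPKM in shNC and 19.7, 20.1 and 22.1 in shPAK5, all shPAK5 libraries below all shNC libraries. It passed in limma-voom (adjusted p = 0.0210) and not in limma (adjusted p = 0.0718), with a change of -0.35 ± 0.05 (SE). The limma-voom call was lost without shNC replicate 3 (adjusted p = 0.133) and without shPAK5 replicate 1, 2 or 3 (limma-voom adjusted p = 0.211, 0.151 and 0.0624). JUNB was at 71.6 ± 2.34 and 72.6 ± 3.72 FPKM, JUND at 45.7 ± 2.61 and 44.7 ± 1.92, and ETS2 at 31.4 ± 0.805 and 31.7 ± 1.17 (SD, n = 3).

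Of 25 matrix substrates 11 were tested, 3 of them with a positive change and a median of -0.07. COL17A1, the hemidesmosomal collagen XVII, had 35.7, 38.8 and 38.3 FPKM in shNC and 50.3, 48.9 and 47.2 in shPAK5, and VCAN, the proteoglycan versican cut by ADAMTS enzymes, had 32.3, 34.5 and 33.1 FPKM and 43.4, 41.6 and 40.05. Every shPAK5 library lay above every shNC library for both. COL17A1 passed in limma-voom (adjusted p = 0.00174) and missed the threshold in limma (adjusted p = 0.0502), and after the GC correction it passed in limma too. VCAN passed in limma-voom (adjusted p = 0.00310) and not in limma (adjusted p = 0.0705). With a library left out in limma-voom the call of COL17A1 held each time, and that of VCAN was lost without shNC replicate 3 (adjusted p = 0.0514) or shPAK5 replicate 1 (adjusted p = 0.0775). The laminin genes LAMB3 and LAMA5 were at 61.9 ± 5.16 and 33.9 ± 5.60 FPKM in shNC and at 55.6 ± 1.35 and 32.6 ± 1.10 in shPAK5 (SD, n = 3). COL1A2, COL4A1, ACAN and COMP had no reads.

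The last 2 lists had no gene past the threshold in limma or limma-voom. Of 11 other inhibitors and inducers 5 were tested, 4 with a positive change and a median of 0.04. LCN2, a lipocalin that binds MMP9, was at 471 ± 11.5 and 506 ± 1.99 FPKM, BSG (EMMPRIN), a surface inducer of MMPs, at 191 ± 3.47 and 197 ± 3.77, and LRP1, a receptor that clears proteases, at 5.56 ± 0.724 and 5.55 ± 0.209 (SD, n = 3). RECK, a membrane-bound inhibitor, and A2M, the broad protease inhibitor alpha-2-macroglobulin, had 2 reads each. The other list of the cascade held 22 genes, namely proteases, inhibitors, the receptor gene PLAUR and the ADAMTS-like genes ADAMTSL4 and ADAMTSL5. Of these 14 were tested, 8 with a positive change and a median of 0.03. CTSB, SPINT2 and SERPINE2 led at 95.9 ± 2.25, 68.6 ± 1.85 and 63.1 ± 2.90 FPKM in shNC against 100.8 ± 2.13, 69.6 ± 2.07 and 70.7 ± 0.466 in shPAK5.

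**Figure D4:**
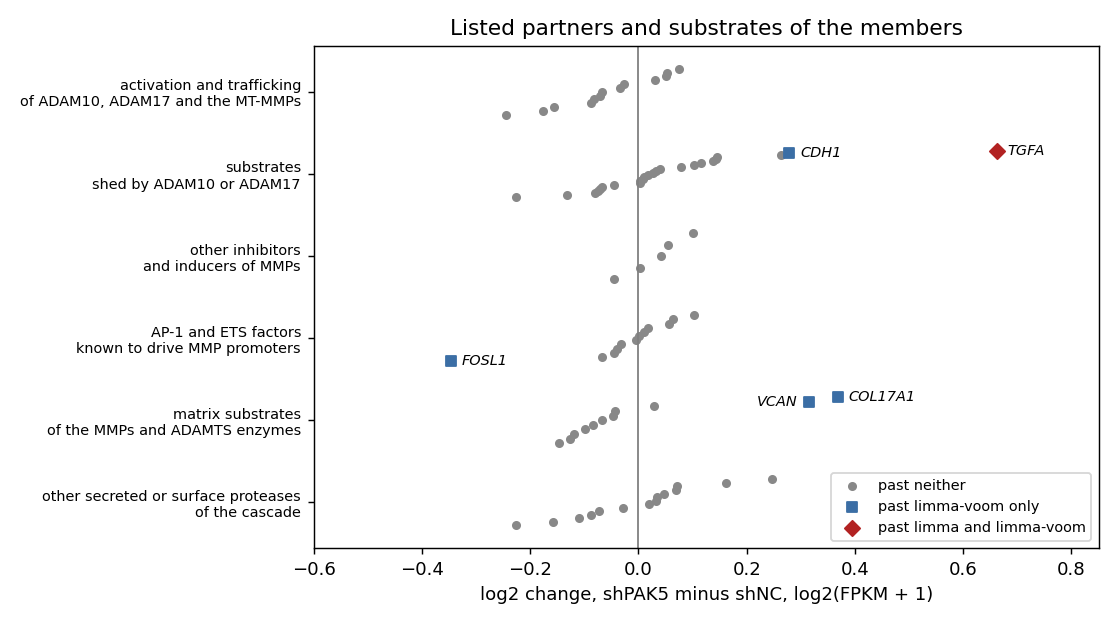
Change of the tested genes of the 6 lists, shPAK5 minus shNC, on the log2(FPKM + 1) scale, with 1 point per gene. The red diamond marks TGFA, past the threshold in limma and limma-voom, and the 4 blue squares CDH1, FOSL1, COL17A1 and VCAN, past it in limma-voom only.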

How the data were processed

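RNA sequencing of 3 shNC and 3 shPAK5 libraries was analysed, with groups and numbers read from the titles. Per the labels' protocols, library preparation used a NEBNext Ultra RNA kit. No source used here names an aligner or a counter, or says whether strand was used. The authors deposited FPKM per gene, per the file headers. A mouse build, mm10, is named in the submitters' processing notes, yet all 58735 IDs and coordinates matched the human annotation GENCODE 29 (GRCh38), which is used here.

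Reads were recovered by multiplying FPKM by gene length and dividing by the smallest step of each library, and 100% of values were whole within 0.001. Chi-square per degree of freedom between libraries of a group was 2.32 to 9.39 over 13710 genes with at least 60 reads, so each counted as 1 replicate. The highest values, 9.39 and 5.37, were those of shNC replicate 1 with shNC replicates 2 and 3, which gave 3.33 with each other.

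Groups were compared with limma 3.58.1 (R 4.3.3, trend) on log2(FPKM + 1) over the 11237 genes that averaged 1 FPKM or more, with Benjamini-Hochberg adjustment at 0.05. limma-voom was run on the recovered reads with the authors' scaling totals. Alternatives were pseudocounts of 0.1 and 0.01, no filter, a mean of at least 5 FPKM, quantile normalization, a replicate block, a GC correction (loess, span 0.3) and each library left out. The GC correction and limma-voom with a library left out were chosen after seeing the data. Over all genes limma called 13, 10 higher and 3 lower in shPAK5, against 13 and 7 after quantile normalization. Members and lists were chosen with earlier results of these data known. Named genes are the members with a mean of at least 1 FPKM, the TIMPs, any called member, and of each list the called genes and up to 3 of the highest level. Any other gene was picked with its values in view. The fits were tested on simulated reads. Figures were drawn with matplotlib in Python.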

Additional observations from a re-analysis of the deposited data

How the results depend on the processing

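The count of members past the threshold was 0 in limma and remained 0 with pseudocounts of 0.1 and 0.01, without a filter, at a mean of at least 5 FPKM and after quantile normalization. It was 1 in limma-voom (MMP7), 1 with the GC correction (MMP28), 2 without shNC replicate 1 (MMP7 and ADAM10) and 0 without any 1 of the other 5 libraries. In limma-voom with a library left out the count ran from 0 to 5, the highest without shNC replicate 1 (MMP7, ADAM10, ADAM15, MMP28 and TIMP2). Same-numbered libraries did not deviate together (correlations -0.02 to 0.07), so the numbers were not taken to pair them, and with the replicate block the count was 0, and the listed genes past the threshold went from 1 to 0. The count of listed genes was 0 without a filter, 3 at a mean of at least 5 FPKM, 3 after quantile normalization, 5 in limma-voom and 2 with the GC correction. It ran from 0 to 11 with a library left out in limma and from 2 to 24 in limma-voom, in both cases highest without shNC replicate 1. Over all tested genes the count was 13 in limma, 7 of 26316 without a filter and 31 of 6591 at a mean of at least 5 FPKM. It was 20 after quantile normalization, 2 with the replicate block, 58 with the GC correction and 117 in limma-voom. Without shNC replicate 1 it was 937 in limma, and without any 1 of the others 2 to 5. In limma-voom it was 2422 (21.6%) without shNC replicate 1 and 6 to 141 without any 1 of the others. Of 334 alternative values for the 17 members, 302 kept direction and side of the threshold, 10 moved past it and 22 reversed, all in genes with a limma adjusted p of at least 0.290 and none past the threshold. ADAMTS15, at -0.0020, was at 0.00096 and 0.00157 with pseudocounts of 0.1 and 0.01, at 0.0054 in limma-voom and at 0.051 with the GC correction. With that correction ADAM9 was at -0.078, MMP24OS at -0.0066, ADAMTS13 at 0.0101 and MMP11 at 0.0110. With a library left out in limma ADAM9 ranged from -0.0103 to 0.044, ADAMTS15 from -0.105 to 0.061 and ADAMTS13 from -0.095 to 0.0123. In limma-voom ADAM9 ranged from -0.0102 to 0.045 (-0.0019 without shPAK5 replicate 1), ADAMTS15 from -0.15 to 0.097 (0.066 without shNC replicate 2, and 0.041 and 0.020 without shPAK5 replicates 1 and 3) and ADAMTS13 from -0.15 to 0.0119. The cause was not tested. Depth limits members at 0 reads to between 0.00486 and 0.0450 FPKM over the pooled shNC libraries.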

Other observations

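Outside the protein-coding rule, 20 further gene names matched the same pattern, namely pseudogenes and antisense or other noncoding transcripts. None reached a mean of 1 FPKM, and 13 had no reads. MMP25-AS1, which overlaps MMP25 on the other strand over 1454 of its 4126 exonic bases, had 25, 33 and 39 reads in shNC and 33, 39 and 29 in shPAK5, whereas MMP25 itself had 17 reads over the 6 libraries. MMP23A, a copy of MMP23B, had 7, 1 and 13 reads in shNC and 4, 0 and 0 in shPAK5, and MMP23B had 9 reads in all. Their counts are uncertain because the copies are near-identical. ADAM1B, a pseudogene in humans of a sperm protein of other mammals, had 4, 6 and 2 reads in shNC and 8, 4 and 13 in shPAK5.

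The CG content of the promoter windows ranged widely in members at each level. The median was 28 CG dinucleotides for the 13 windows of members at or above 1 FPKM, with a range of 4 to 44, 21 for the 13 windows of members read below that level, with a range of 0 to 47, and 25.5 for the 14 windows of members without reads, with a range of 0 to 43. MMP7, with 4, was the lowest of the first set. Of the 14 windows without reads 1 held an AP-1 match, 0 a TCF match and 3 a TATA match, against 2, 2 and 4 of the 13 windows of members read below 1 FPKM and 1, 2 and 1 of the 13 at or above it.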
